A study of Mus musculus with 6 samples.

Results

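A set of 40 genes of DNA replication and S phase was followed through the glands and tumours of a transgenic mouse with mammary cancer. The genes were listed by symbol, and all 40 were found among the 31053 mouse genes of the count tables. They fall into 8 roles. Origin licensing has 5 genes (Orc1, Orc6, Cdc6, Cdt1, Gmnn) and the MCM helicase 6 (Mcm2 to Mcm7). Helicase activation has 5 (Mcm10, Cdc45, Gins1, Gins2, Gins3), and polymerases and primase 4 (Pola1, Prim1, Pold1, Pole). The sliding clamp, its loader and strand maturation have 8 (Pcna, Rfc2, Rfc3, Rfc4, Rfc5, Rpa2, Fen1, Lig1). Nucleotide supply has 5 (Rrm1, Rrm2, Tyms, Tk1, Dut), chromatin and histone supply 4 (Chaf1a, Chaf1b, Uhrf1, Slbp) and S-phase control 3 (E2f1, Ccne2, Tipin).

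The samples were 6 single-cell RNA-seq libraries from female C3(1)-Tag mice (C3TAG in the labels), a line kept on the FVB/NJ background that carries the SV40 large T antigen behind the C3(1) promoter. Each of 3 states had 2 libraries. Prepuberty was taken from whole glands at 5 weeks of age, DCIS (ductal carcinoma in situ) from whole glands at 14 weeks, and Tumor from tumours that could be felt, at over 18 weeks. Every group carries the transgene, and no gland without it was analysed here. Age, lesion and the piece of tissue taken change together, so they cannot be told apart. The labels give each library a number but tie none to an animal, so p-values measure the spread between libraries, which may be technical. The study's methods name another dissociation kit for tumours and a later chemistry for Tumor 2, where the labels name one protocol for all, and neither can be told apart from the state or the library.

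Before a cell divides, the origin recognition complex, Cdc6 and Cdt1 load the MCM helicase onto DNA, and Cdc45 and the GINS complex then switch it on. Primase and polymerase alpha begin each strand, polymerases delta and epsilon extend it on the Pcna clamp, and ribonucleotide reductase, thymidylate synthase and thymidine kinase supply the nucleotides. Many of these genes are targets of E2F factors, which the RB family holds in check, and the SV40 large T antigen is known for binding RB family proteins and p53.

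The letters around the starts of these genes were examined first, because E2F targets are known by a short motif. RefSeq promoter windows (GRCm38.p6, from 250 bases before to 50 bases after the start) were at hand for 32 of the 40 genes, and none for Gmnn, Mcm4, Gins1, Gins2, Pole, Rfc2, Ccne2 and Tipin. Both strands were searched for TTTCCCGC, TTTGGCGC, TTTCGCGC and TTTGCCGC, and matches may overlap. At least 1 match was found in 13 of 32 genes (40.6%), beside 704 of all 27025 genes with a window (2.6%). The list was made to include E2F-driven S-phase genes, so a higher share is partly built in. The 27025 genes were not matched for base composition. Matches stood in the windows of 4 of 5 MCM genes and 3 of 4 licensing genes, and in those of 0 of 5 nucleotide supply genes. TTTGCCGC was found in none of the 32 genes. A match is a description of the letters in these windows and not of binding. Only exact spellings were counted, and a start of a gene may lie outside its windows. Hence 0 matches do not show that a gene lacks E2F sites. Below, matches are in capitals and all windows are on the minus strand. The Pold1 window is shown by rule, since Pold1 had the smallest p-value of its role in the T-antigen comparison given later and its window holds a match. The windows of Mcm6, which held 3 matches, Mcm3 and Mcm7 were chosen after their values were seen, to show the MCM genes. The windows are chr5:138171834-138172133 for Mcm7, chr7:44548766-44549065 for Pold1, chr1:128359656-128359955 for Mcm6 and chr1:20820263-20820562 for Mcm3.
Mcm7: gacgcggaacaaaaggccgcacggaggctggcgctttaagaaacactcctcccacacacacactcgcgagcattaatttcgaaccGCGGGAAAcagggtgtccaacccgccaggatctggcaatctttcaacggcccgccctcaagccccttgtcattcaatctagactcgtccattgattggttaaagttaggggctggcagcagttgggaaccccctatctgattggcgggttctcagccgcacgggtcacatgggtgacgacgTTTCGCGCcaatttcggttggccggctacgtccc
Pold1: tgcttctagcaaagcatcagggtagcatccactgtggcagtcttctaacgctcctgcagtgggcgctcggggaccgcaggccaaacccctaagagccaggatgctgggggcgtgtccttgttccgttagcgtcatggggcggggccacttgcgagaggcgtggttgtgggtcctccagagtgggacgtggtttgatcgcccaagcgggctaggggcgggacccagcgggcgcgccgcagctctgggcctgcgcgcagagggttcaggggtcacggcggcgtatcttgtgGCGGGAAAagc
Mcm6: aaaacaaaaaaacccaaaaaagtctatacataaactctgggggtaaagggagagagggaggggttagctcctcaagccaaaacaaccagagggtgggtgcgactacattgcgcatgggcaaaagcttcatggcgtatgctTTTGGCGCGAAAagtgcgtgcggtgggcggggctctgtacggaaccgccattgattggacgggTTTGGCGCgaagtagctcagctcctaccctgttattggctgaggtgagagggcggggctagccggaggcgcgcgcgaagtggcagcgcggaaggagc
Mcm3: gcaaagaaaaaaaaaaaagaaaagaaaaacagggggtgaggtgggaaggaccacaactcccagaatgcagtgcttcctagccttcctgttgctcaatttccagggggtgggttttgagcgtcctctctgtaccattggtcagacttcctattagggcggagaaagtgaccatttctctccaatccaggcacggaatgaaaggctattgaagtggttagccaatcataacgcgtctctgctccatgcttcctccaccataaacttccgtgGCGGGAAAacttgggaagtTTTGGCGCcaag

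In the Mcm6 window 2 of the 3 matches overlap, and they begin 110 and 106 bases before the start, the third 47 bases before it. The matches of Mcm3 begin 20 and 39 bases after the start, that of Pold1 40 bases after it, and those of Mcm7 165 bases before and 17 bases after it. Another annotated Mcm7 window held no match.

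After filters on detected genes, mitochondrial share and doublets, 21537 of 23835 barcodes were kept, from 2548 cells in Tumor 2 to 4306 in Tumor 1. Median UMIs (unique molecular identifiers, 1 per captured transcript) per cell ran from 6541 in DCIS 2 to 13631.5 in Tumor 2. T-antigen UMIs numbered 165 and 4 in Prepuberty 1 and 2, 634 and 290 in DCIS 1 and 2, and 13609 and 2456 in Tumor 1 and 2. No UMI of the neomycin resistance feature was counted. Pairs of libraries shared from 9 to 39 barcodes, at most 0.913% of the smaller library. Of 23 clusters, 17 were named for a cell type by its markers, with names that end in -like, and 6 stayed unnamed.

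**Figure D1:**
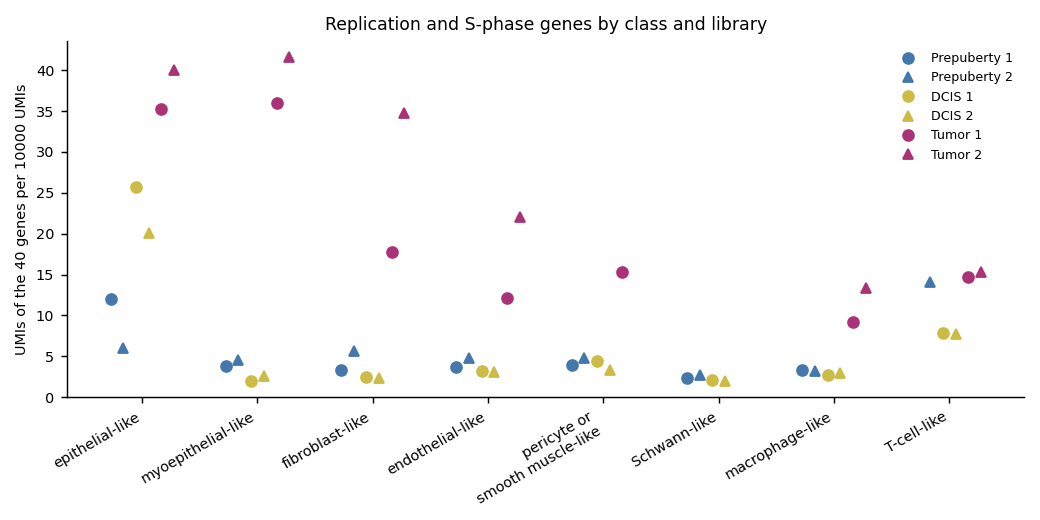
UMIs of the 40 genes per 10000 UMIs (linear axis) in each named class, 1 point per library with at least 10 cells of the class; colour gives the state and shape the replicate number. Epithelial-like cells of both Tumor libraries sit at 35.2 and 40, and in fibroblast-like, endothelial-like and macrophage-like cells both Tumor points lie above all 4 gland points.

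Levels per class were compared as UMIs of the 40 genes per 10000 UMIs of the class, which the plot by class and library shows. In epithelial-like cells, which held most of the T antigen, the level was 12 and 6.04 in Prepuberty 1 and 2, 25.8 and 20.1 in DCIS 1 and 2, and 35.2 and 40 in Tumor 1 and 2. No 2 states overlapped. In fibroblast-like cells the level was 3.35 and 5.66, then 2.43 and 2.34, then 17.8 and 34.8 in the same order. Here the glands were low at both ages and the tumours high. Endothelial-like cells held 3.65 and 4.77, 3.17 and 3.10, and 12.2 and 22.1, with 34 cells behind the last value. Macrophage-like cells held 3.31 and 3.18, 2.71 and 2.91, and 9.20 and 13.4. Again only the tumours were high. T-cell-like cells stood above the fibroblast-like, endothelial-like and macrophage-like cells of the same gland libraries and under the epithelial-like cells of DCIS, with 14.0 in Prepuberty 2, 7.80 and 7.78 in DCIS and 14.7 and 15.3 in Tumor (Prepuberty 1 had 9 such cells and was left out). Pericyte or smooth muscle-like cells held 3.30 to 4.83 in the glands and 15.3 in 23 cells of Tumor 1, which had 0 T-antigen UMIs. Among 6 classes (epithelial-like, myoepithelial-like, fibroblast-like, endothelial-like, macrophage-like and T-cell-like), the mean CPM over libraries was highest in epithelial-like cells for 37 of 40 genes, in myoepithelial-like cells for 2 and in T-cell-like cells for 1. The 2 were Mcm7 and Gins2, and the reservation on myoepithelial-like Tumor cells given below applies to them. Classes come from clusters of the same cells, so no class was tested against another in level. Because a class is summed over its cells, more cycling cells and more transcript per cell cannot be told apart in these sums.

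Myoepithelial-like cells need a reservation. Their level was 3.87 and 4.52 in Prepuberty, 1.95 and 2.56 in DCIS, and 36.0 and 41.6 in the 38 and 68 cells of Tumor 1 and 2. In those Tumor cells the summed level of myoepithelial markers was 23.1 and 42.9 per 10000 UMIs, beside 71.6 to 152 in the glands, the summed level of epithelial markers was 61.8 and 27.2, beside 7.15 to 16.6, and 42.1% and 54.4% of cells held a T-antigen UMI. The part of this shift of markers in the result was not tested, and no test between states was made in this class.

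In epithelial-like cells the question was at which step from gland to tumour the replication genes differ. CPM below are UMI counts scaled to the library total of the class and by TMM, a correction for unequal composition. In DCIS against Prepuberty, 38 of 40 genes had both DCIS libraries above both Prepuberty libraries, beside 28.6% of the 13342 genes tested. The other 2 were Gins1 and Mcm10. The median log2 fold change was 1.41, with 39 of 40 above 0 (38 without TMM). None passed the edgeR quasi-likelihood test at an adjusted p of 0.05, as was so for 0% of all genes tested, while 28 had an unadjusted p under 0.05 beside 7.44% of all genes tested. DESeq2 on the same sums called 14, all higher in DCIS, beside 2.32% of all genes tested (1.65% higher). Without a filter on low counts edgeR called 24, beside 2.29% of all genes called higher, so the call depends on the tool and on the filter. In Tumor against DCIS none was called either (1.14% of all genes were called, 0.345% higher and 0.794% lower), 3 had an unadjusted p under 0.05, all higher in Tumor, beside 12.5% of all genes tested, and DESeq2 called 0, beside 12.4% of all genes. The median was 0.39, with 32 of 40 above 0. Without a filter on low counts 2 were called, beside 4.87% of all genes called higher. Without TMM none was called, but 14 had an unadjusted p under 0.05, all higher in Tumor, beside 23.0% of all genes, 37 were above 0 and the median was 0.80, where the median of all genes moved from 0.08 to 0.49. States did not overlap for 23 genes higher in Tumor and 5 lower, beside 30% and 27% of all genes tested. In Tumor against Prepuberty 17 of 40 rose and none fell, beside 6.11% of all genes called, 2.8% higher and 3.31% lower, with a median of 1.73 and 40 of 40 above 0. Leaving out Prepuberty 1, Prepuberty 2, DCIS 1 or DCIS 2 left 0 called, where 0.0209%, 0%, 1.57% and 1.5% of all genes were called, and leaving out Tumor 1 or Tumor 2 gave 18, beside 11.7% and 11.2%. With the replicate number as a block 8 were called, beside 2.39% of all genes (1.07% higher). With cells thinned to 3000 UMIs 8 were called as well, beside 2.30% (0.903% higher), and with DESeq2 31, beside 17.3% (8.60% higher). Without TMM 25 were called, beside 6.48% (4.46% higher), and without a filter on low counts 35, beside 7.38% called higher.

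**Figure D2:**
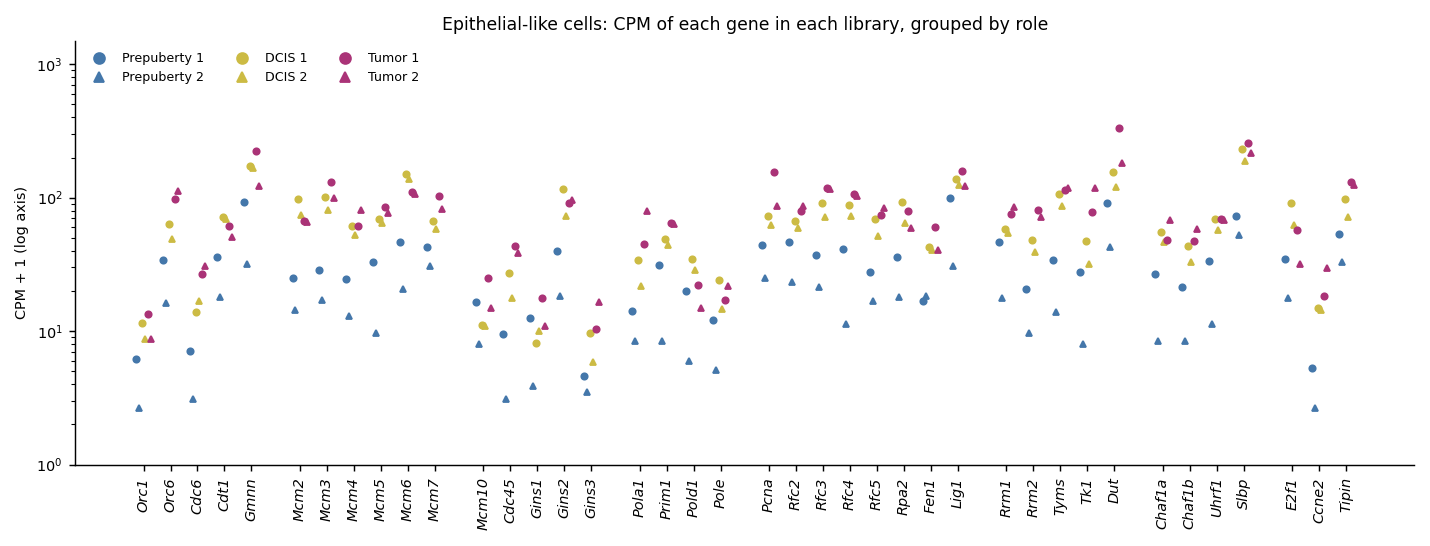
TMM-scaled CPM plus 1 of each gene in epithelial-like cells (log axis), grouped by role, 1 point per library; colour gives the state and shape the replicate number. Prepuberty 2 is lowest for nearly every gene, and DCIS and Tumor points lie close for the MCM genes.

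The licensing genes showed both courses. Cdc6, which loads the helicase, had 6.07 and 2.08 CPM in Prepuberty, 12.8 and 15.8 in DCIS, and 26.0 and 30.0 in Tumor. Each state lay above the earlier state, and Tumor against Prepuberty gave a log2 fold change of 2.63 ± 0.47 (SE, adjusted p = 0.0318 by edgeR). Gmnn, the inhibitor of Cdt1, had 91.5 and 30.8 CPM in Prepuberty, 171 and 165 in DCIS and 224 and 121 in Tumor, and Tumor and DCIS overlapped (log2 fold change 0.04 ± 0.52). Orc6, of the origin recognition complex, had 33.3 and 15.4, 62.9 and 48.1, and 96.7 and 112 CPM, and rose from Prepuberty to Tumor by 2.06 ± 0.40 on the log2 scale (adjusted p = 0.0379).

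All 6 MCM genes had both DCIS libraries above both Prepuberty libraries. Mcm6 had 45.9 and 19.5 CPM in Prepuberty, 149 and 138 in DCIS and 109 and 105 in Tumor. It was highest in DCIS, but neither difference passed (log2 fold change 2.10 ± 0.41 for DCIS against Prepuberty, adjusted p = 0.27, and -0.42 ± 0.39 for Tumor against DCIS, adjusted p = 0.54). Mcm3 had 27.9 and 16.2, 99.6 and 79.6, and 130 and 98.9 CPM, and its rise from Prepuberty to Tumor, 2.35 ± 0.36, had the smallest adjusted p of the set (0.0286). Mcm7 had 41.8 and 29.9, 65.9 and 57.2, and 102 and 80.8 CPM, without overlap between states. Its change from Prepuberty to Tumor was 1.34 ± 0.30 (adjusted p = 0.0475), and Mcm4 and Mcm2 also passed.

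Helicase activators ranged from -0.21 for Mcm10 to 1.86 for Cdc45 in log2 fold change of DCIS against Prepuberty. Cdc45 had 8.49 and 2.08 CPM in Prepuberty, 26.4 and 16.8 in DCIS and 42.8 and 37.8 in Tumor, and rose from Prepuberty to Tumor (adjusted p = 0.0387). Gins2, a GINS subunit, had 38.9 and 17.5, 116 and 72.5, and 90.7 and 94.4 CPM, so that DCIS and Tumor overlapped. Mcm10, which steadies the helicase with the polymerase, had 15.5 and 7.07 CPM in Prepuberty, 10.2 and 9.98 in DCIS and 23.9 and 14.0 in Tumor. It showed no step at DCIS (log2 fold change -0.21 ± 0.45) and was not called in any comparison of epithelial-like cells.

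Among polymerases, Pola1, the catalytic subunit of polymerase alpha, had 13.1 and 7.48 CPM in Prepuberty, 33.4 and 20.9 in DCIS and 44.0 and 79.0 in Tumor. It rose from Prepuberty to Tumor by 2.52 ± 0.45 on the log2 scale (adjusted p = 0.033). Prim1, the small primase subunit, had 30.4 and 7.48, 47.6 and 43.4, and 64.2 and 62.1 CPM, and was not called. Pold1, the catalytic subunit of polymerase delta, had 19.1 and 4.99, 33.7 and 27.9, and 21.1 and 13.9 CPM, so both Tumor libraries lay under both DCIS libraries (-0.81 ± 0.53, adjusted p = 0.38).

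Of the clamp and maturation genes, Pcna had 43.5 and 24.1 CPM in Prepuberty, 71.9 and 61.4 in DCIS and 156 and 85.3 in Tumor, with Tumor 1 well above Tumor 2. Lig1, the ligase of lagging strands, had 98.1 and 29.9, 136 and 124, and 159 and 121 CPM, and Tumor and DCIS overlapped. Pcna, Rfc3, Rfc5 and Fen1 rose from Prepuberty to Tumor, with log2 fold changes from 1.58 to 2.02, and Rfc2, Rfc4, Rpa2 and Lig1 did not pass.

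Nucleotide supply genes had a median log2 fold change of 0.82 in Tumor against DCIS, from 0.26 for Tyms to 1.35 for Tk1. Thymidine kinase Tk1 had 26.7 and 7.07 CPM in Prepuberty, 46.0 and 30.8 in DCIS and 77.3 and 118 in Tumor. Its change of Tumor against DCIS, 1.35 ± 0.55, did not pass (adjusted p = 0.19). Rrm2, the regulated subunit of ribonucleotide reductase, had 19.6 and 8.73, 46.8 and 38.4, and 80.1 and 70.3 CPM, and rose from Prepuberty to Tumor by 2.35 ± 0.40 (adjusted p = 0.0308). Dut, which clears dUTP, had 90.5 and 42.0, 155 and 119, and 333 and 181 CPM. Its states did not overlap, but no comparison passed in epithelial-like cells. Tyms rose from Prepuberty to Tumor by 2.27 ± 0.44 (adjusted p = 0.0379).

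In the chromatin group, Slbp, which binds the ends of histone messages, had 71.8 and 51.6 CPM in Prepuberty, 233 and 188 in DCIS and 255 and 216 in Tumor, and rose from Prepuberty to Tumor by 1.93 ± 0.32 on the log2 scale (adjusted p = 0.0303). Chaf1b, of the histone chaperone CAF-1, had 20.3 and 7.48, 42.3 and 32.0, and 46.6 and 57.4 CPM and was not called (adjusted p = 0.057). Of the S-phase control genes, E2f1, the transcription factor itself, had 33.5 and 16.6 CPM in Prepuberty, 90.2 and 61.1 in DCIS and 56.3 and 30.7 in Tumor. Tumor 2 lay under Prepuberty 1, and Tumor against DCIS gave -0.80 ± 0.44 (adjusted p = 0.31). Ccne2, cyclin E2, had 4.33 and 1.66, 13.9 and 13.4, and 17.3 and 28.9 CPM, and its rise from Prepuberty to Tumor, 2.79 ± 0.49, was the largest of those that passed (adjusted p = 0.0316). Tipin, a partner of Timeless at the fork, had 52.4 and 32.0, 97.1 and 71.1, and 131 and 124 CPM. E2f1, Cdt1, Mcm2, Mcm6 and Pold1 were the 5 genes with both Tumor libraries under both DCIS libraries.

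The clusters that make up the epithelial-like class were not the same in each state. The cluster led by Tph1, Cxcl15 and Ptn held 44.2% and 40.7% of the class in Prepuberty, 12.4% and 38.4% in DCIS and 1.19% and 4.08% in Tumor. Within it the 40 genes were at 6.24 and 4.45 UMIs per 10000 in Prepuberty, 9.99 and 10.8 in DCIS and 33.3 and 20.7 in Tumor, so the order of the states held inside the cluster. In the cluster led by Ltf, Csn3 and Wfdc18 they were at 12.2 and 2.86, 19.0 and 14.3, and 38.3 and 50.0. In the cluster led by the mitosis genes Cenpf, Ube2c and Ccnb1 the values were 15.2 in Prepuberty 1, 30.9 and 29.6 in DCIS and 30.9 and 31.5 in Tumor, with DCIS and Tumor nearly level. The cluster led by Pthlh, Aqp3 and Nppb held 27.2% and 17.8% of the class in Tumor and from 1.83% to 26.9% in the glands. Its 39 Prepuberty 2 cells held epithelial markers at only 4.60 per 10000 UMIs, beside 49.9 to 164 in the other libraries, so the data go against their name, and they make up 26.9% of the class in that library.

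Fibroblast-like cells were compared to see whether stroma follows the epithelium. None of the 40 genes was called in DCIS against Prepuberty by edgeR (0% of 12057 genes tested) or by DESeq2 (0.738%), 1 was higher and 11 were lower at an unadjusted p under 0.05, beside 4.81% and 5.15% of all genes tested, and the median log2 fold change was -0.72. Without a filter on low counts edgeR called 5, beside 1.86% of all genes. States did not overlap for 25 genes lower in DCIS and 1 higher (Cdc6), beside 25.6% and 23.8% of all genes tested. In Tumor against DCIS 36 of 40 rose and none fell, with a median of 3.34, beside 12.1% of all genes called, 7.14% higher and 4.98% lower. In Tumor against Prepuberty 24 rose and none fell, with a median of 2.43, beside 8.39% of all genes called, 5.94% higher and 2.45% lower. Rrm2 had 0.797 and 1.73 CPM in Prepuberty, 1.17 and 1.60 in DCIS and 54.4 and 44.2 in Tumor, a log2 fold change of 5.10 ± 0.52 in Tumor against DCIS (adjusted p = 0.00745 by edgeR). Gmnn had 5.03 and 5.82, 3.99 and 2.14, and 71.3 and 50.9 CPM (4.35 ± 0.45, adjusted p = 0.008). Cdc45 had 1.59 and 2.56, 1.88 and 0.668, and 23.0 and 27.3 CPM (4.39 ± 0.59, adjusted p = 0.0109). Mcm6 had 3.83 and 14.4, 2.11 and 1.87, and 44.1 and 99.3 CPM, and Prepuberty 2 stood above the other glands. Rfc5, Rrm1, Gins2, Rfc4, Pole, Ccne2, Lig1, Tipin and Uhrf1 rose with log2 fold changes from 2.47 for Tipin to 5.50 for Ccne2. The 4 genes that did not pass in Tumor against DCIS were Pcna, Pold1, Cdt1 and Cdc6, at 1.24 to 2.08.

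The make-up of the Tumor fibroblast-like cells has to be read beside these values. Of the cells of Tumor 1 and 2, 30.3% and 43.4% held a T-antigen UMI, beside at most 0.635% in the 4 gland libraries, and T-antigen CPM rose in Tumor against DCIS in this class (adjusted p = 0.0109). Summed epithelial markers were at 6.47 and 1.76 UMIs per 10000, beside 0.175 to 0.902 in the glands, and fibroblast markers at 227 and 103, beside 65.0 to 127, with 159 and 1019 UMIs of the fibroblast receptor Pdgfra and 373 and 216 of the epithelial marker Epcam, so that Tumor 1 held more Epcam than Pdgfra. In the cluster led by Ccl2, Mmp3 and Ccl7, the Tumor 1 cells held fibroblast markers at 17.4 and epithelial markers at 14.2 per 10000, with the T antigen in 59.7% of 77 cells, and the Tumor 2 cells held them at 41.2 and 1.55, with the T antigen in 39.4% of 132 cells. Without that cluster the 40 genes were at 8.33 and 32.7 per 10000 in Tumor 1 and 2, beside 2.41 to 5.01 in the glands, and 19 of 40 were called in Tumor against DCIS and 8 in Tumor against Prepuberty, all higher in Tumor, beside 2.76% and 2.87% of all genes called higher. Of the cells left, 16.8% in Tumor 1 and 46.9% in Tumor 2 still held a T-antigen UMI. In cells with no UMI of T antigen, Epcam, Krt8 or Krt18 (67 and 93 Tumor cells) the level was 8.83 and 23.9, beside 2.35 to 5.61, and 15 and 7 were called, beside 3.05% and 2.59% of all genes called higher. In cells with no T-antigen UMI 29 and 14 were called, beside 5.04% and 3.90%, and without integration of the libraries 14 and 5, beside 2.51% and 1.51%. Leaving out DCIS 1, DCIS 2 or Tumor 2 left 4, 0 and 17 called in Tumor against DCIS, beside 0.279%, 0.00787% and 1.84% of all genes called higher. In Tumor against Prepuberty, leaving out Prepuberty 1, Prepuberty 2, DCIS 1, DCIS 2 or Tumor 2 left 2, 2, 14, 14 and 7, beside 0.759%, 0.0867%, 2.87%, 2.78% and 2.45%. The part of tumour cells among these cells in the result was not tested further.

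**Figure D3:**
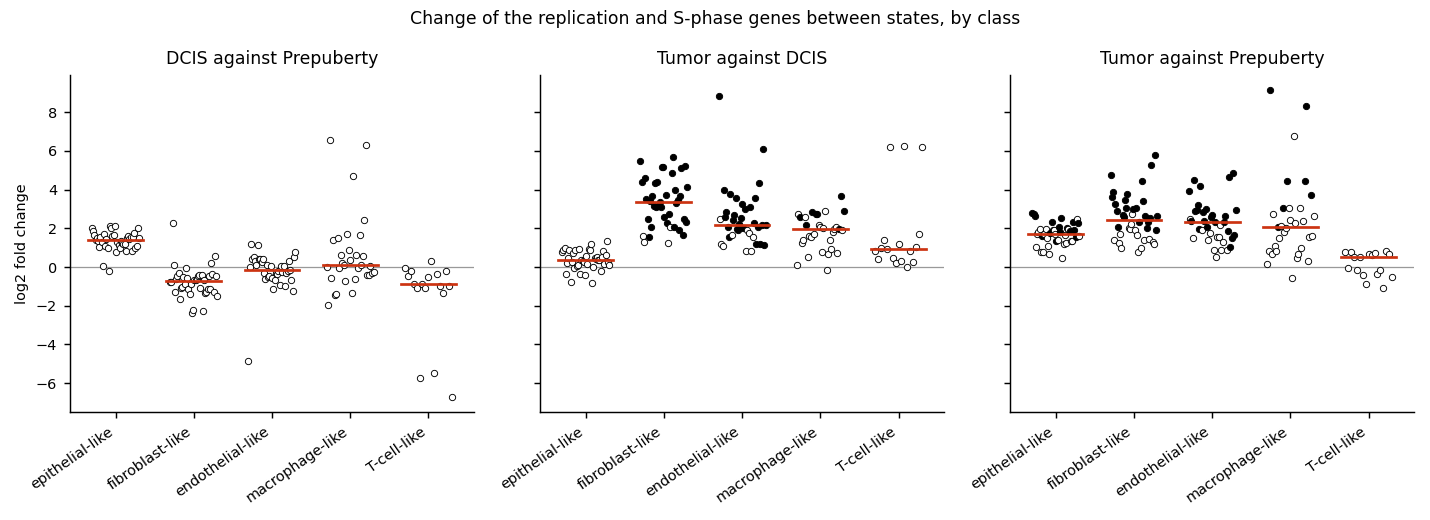
Log2 fold change of each gene tested, by class and comparison; filled points passed an adjusted p of 0.05 by edgeR, open points did not, and bars are medians. In DCIS against Prepuberty no point is filled, whereas in Tumor against DCIS the medians are 3.34 in fibroblast-like, 2.20 in endothelial-like and 0.39 in epithelial-like cells; points far from the rest belong to genes with very few UMIs in 1 state.

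Endothelial-like cells held little T antigen: 2 and 0 UMIs in Prepuberty, 5 and 0 in DCIS and 3 and 0 in Tumor. Their summed epithelial markers were at 0.375 to 1.24 per 10000 UMIs, and the Tumor cells held 673 and 282 UMIs of the endothelial marker Pecam1, 27 and 8 of Epcam and 0 of Krt5. Of the 40 genes 37 passed the filter on low counts, and counts over them are a description. In DCIS against Prepuberty 0 were called by edgeR (0% of 10603 genes tested) and by DESeq2 (0.594%), with 2 higher and 1 lower at an unadjusted p under 0.05, beside 5.81% and 5.56% of all genes tested. In Tumor against DCIS 28 rose, beside 7.08% of all genes called higher, and in Tumor against Prepuberty 24 rose, beside 6.86%. None fell in either, where 6.58% and 4.82% of all genes were called lower. All 5 nucleotide supply genes were called in both comparisons. Rrm2 had 1.81 and 2.57 CPM in Prepuberty, 3.14 and 2.40 in DCIS and 42.0 and 77.1 in Tumor (4.35 ± 0.50 on the log2 scale against DCIS, adjusted p = 0.00237 by edgeR). Dut had 13.9 and 12.5, 18.8 and 9.59, and 97.1 and 110 CPM (2.86 ± 0.35, adjusted p = 0.00274). Tk1 had 52 UMIs in the Tumor cells and 3 in the DCIS cells, a ratio per UMI of 93.7 (95% interval for counting error 30.4 to 469). Gmnn, Mcm6, Lig1, Orc6, Rfc5, Tipin, Mcm5, Gins2 and Rrm1 rose in Tumor against DCIS with log2 fold changes from 2.05 to 3.78.

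These values rest on 76 and 34 Tumor cells. Leaving out DCIS 1, DCIS 2 or Tumor 2 left 11, 10 and 11 called in Tumor against DCIS, beside 1.67%, 1.81% and 4.78% of all genes called higher. Leaving out Prepuberty 1, Prepuberty 2 or Tumor 2 left 14, 12 and 15 in Tumor against Prepuberty, beside 3.64%, 2.59% and 5.07%. In cells with no UMI of T antigen, Epcam, Krt8 or Krt18 (32 and 29 Tumor cells) 9 and 9 were called, beside 3.96% and 4.16% of all genes called higher, at levels of 9.77 and 14.6 per 10000, where the glands had 3.08 to 4.73. With cells thinned to 3000 UMIs 4 and 5 were called, beside 3.28% and 3.65%.

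In macrophage-like cells 31 of 40 genes passed the filter, again counted as a description. In DCIS against Prepuberty 0 were called (0.128% of 7824 genes tested, 0.102% higher and 0.0256% lower), with 3 higher and 1 lower at an unadjusted p under 0.05, beside 5.55% and 5.02% of all genes, and DESeq2 called 0, beside 0.69%. In Tumor against DCIS 8 rose (Tk1, Mcm3, Dut, Mcm6, Mcm5, Uhrf1, Gins2 and Tipin), beside 6.43% of all genes called, 2.42% higher. DESeq2 called 5 there and 4 in Tumor against Prepuberty, beside 1.76% and 1.60% of all genes called higher. Without TMM edgeR called 16 in Tumor against DCIS, beside 9.53%. In Tumor against Prepuberty 7 rose (Dut, Mcm6, Mcm3, Tk1, Gmnn, Rrm2 and Rrm1), beside 5.99%, 1.93% higher. None fell in either, beside 4.01% and 4.06% of all genes. Of these 7, all but Gmnn had 0 to 3 UMIs over both Prepuberty libraries. They passed the filter on low counts through other states, so their calls against Prepuberty are no independent support for a difference. Mcm3 had 2.68 and 4.10 CPM in Prepuberty, 4.02 and 3.93 in DCIS and 24.9 and 33.7 in Tumor (2.85 ± 0.53 on the log2 scale against DCIS, adjusted p = 0.0139 by edgeR). Dut had 0 UMIs in both Prepuberty libraries and 266 in Tumor, at least 21.6-fold higher per UMI, and Rrm2 had 0 and 149, at least 12.1-fold higher (floor of 3 UMIs over both Prepuberty libraries). Mcm6 had 1 and 126 UMIs, a ratio of 30.7 (95% interval for counting error 5.41 to 1222). T-antigen UMIs were seen in 4.71% and 1.60% of Tumor macrophage-like cells, near the 3.95% and 0% of endothelial-like cells, and summed epithelial markers at 2.75 and 1.11 per 10000, beside 0.191 to 1.42 in the glands. In cells with no UMI of T antigen, Epcam, Krt8 or Krt18 the level was 8.01 and 12.9 in Tumor, beside 2.53 to 3.59, and 4 and 3 were called, beside 2.74% and 1.95% of all genes called higher. Leaving out DCIS 1, DCIS 2 or Tumor 2 left 0, 0 and 4 called in Tumor against DCIS, beside 0.0622%, 0.0535% and 1.81% of all genes called higher. In Tumor against Prepuberty leaving out Prepuberty 1, Prepuberty 2 or Tumor 2 left 3, 1 and 3, beside 0.653%, 0.428% and 2.49%. With thinned cells 0 and 1 were called, beside 3.19% and 2.69%.

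T-cell-like cells gave no call. The filter passed 17 of 40 genes, and 0 were called in each comparison by edgeR, beside 0.513% of 4291 genes tested in Tumor against DCIS, 0.303% in Tumor against Prepuberty (0.233% higher) and 0% in DCIS against Prepuberty. At an unadjusted p under 0.05, 4 were higher in Tumor than in DCIS, beside 6.74% of all genes, 2 were lower in DCIS than in Prepuberty, beside 2.12%, and 0 passed between Tumor and Prepuberty, beside 4.8% higher and 3.01% lower, and DESeq2 called 0 in each. States did not overlap for 9 genes higher in Tumor than in DCIS, beside 24.6% of all genes tested. Only 1 Prepuberty library entered this fit, so both comparisons with Prepuberty take their spread from DCIS and Tumor and assume that Prepuberty varies alike. A lack of calls there says nothing about whether the levels differed.

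Whether the step from DCIS to Tumor differed between classes was tested with a class by state term and the library as a block. On the log2 scale the rise was larger in fibroblast-like than in epithelial-like cells for 18 of 40 genes, in endothelial-like cells for 14 and in macrophage-like cells for 5, and smaller for none. Of all genes tested 5.85%, 4.17% and 4.15% were called, 3.29%, 2.15% and 1.97% in the same direction and 2.55%, 2.02% and 2.18% in the other. Against fibroblast-like cells the difference was -3.76 ± 0.45 on the log2 scale for Tk1 (adjusted p = 0.00664 by edgeR), -4.67 ± 0.59 for Pole (adjusted p = 0.00769) and -4.28 ± 0.60 for Gmnn (adjusted p = 0.0095). Against endothelial-like cells it was -3.62 ± 0.52 for Mcm6 (adjusted p = 0.00423) and -3.85 ± 0.62 for Gins2 (adjusted p = 0.00706). The 5 genes against macrophage-like cells were Mcm6, Mcm3, Mcm5, Uhrf1 and Gins2, from -2.25 to -3.12. Epithelial-like cells stood at 25.8 and 20.1 UMIs per 10000 in DCIS, where fibroblast-like cells stood at 2.43 and 2.34 and macrophage-like cells at 2.71 and 2.91. The folds thus start from unlike levels. Many Tumor fibroblast-like cells held a T-antigen UMI, 59.7% and 39.4% of those in the cluster led by Ccl2, Mmp3 and Ccl7 in Tumor 1 and 2. The test was not repeated without such cells, so it does not set stroma alone against epithelium. For fibroblast-like cells 3, 0 and 11 were called without DCIS 1, DCIS 2 or Tumor 2, beside 0.802%, 0% and 3.51% of all genes in this direction, and 32 without either Prepuberty library, beside 4.41% and 4.52%. For endothelial-like cells 4, 5 and 5 were called without DCIS 1, DCIS 2 or Tumor 2, beside 1.18%, 0.874% and 2.55%, and 22 and 23 without Prepuberty 1 or 2, beside 3.91% and 4.03%. For macrophage-like cells 11, 0, 0, 15 and 8 were called without Prepuberty 2, DCIS 1, DCIS 2, Tumor 1 or Tumor 2, beside 2.75%, 0.316%, 0.170%, 4.31% and 3.96%.

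**Figure D4:**
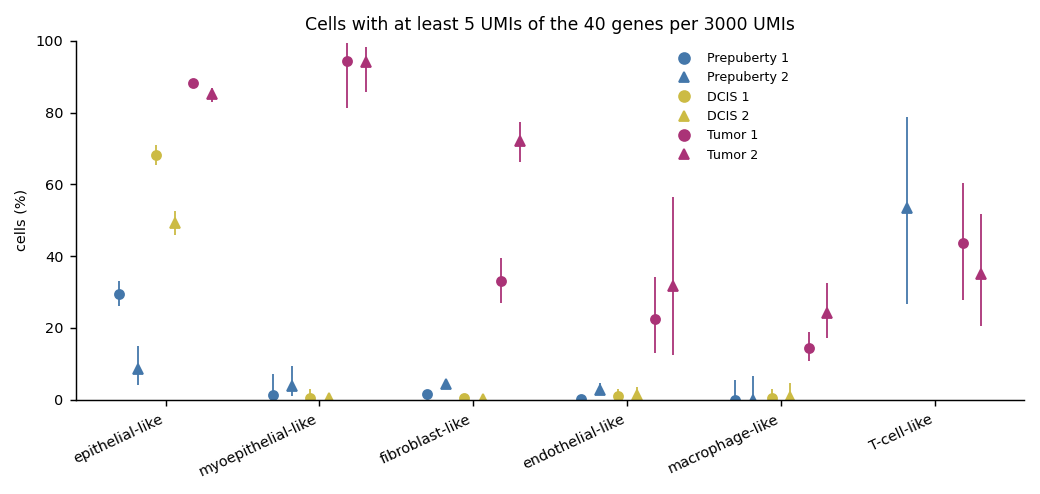
Percentage of cells with at least 5 UMIs of the 40 genes after each cell was thinned to 3000 UMIs, 1 point per library with at least 10 such cells; lines are exact binomial 95% intervals for counting error. Epithelial-like points climb from 29.5% and 8.47% in Prepuberty to 88.1% and 85.1% in Tumor, and myoepithelial-like, fibroblast-like and macrophage-like points stay under 5% in the glands.

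The share of cells with many such UMIs was counted next. Each cell was thinned to 3000 UMIs, and a cell was counted if at least 5 were UMIs of the 40 genes. In epithelial-like cells the share was 29.5% (exact 95% interval 26.1 to 33.1) in Prepuberty 1 and 8.47% (4.14 to 15.0) in Prepuberty 2. It was 68.2% (65.4 to 70.9) and 49.3% (45.9 to 52.6) in DCIS, and 88.1% (86.8 to 89.4) and 85.1% (83.0 to 87.0) in Tumor. The intervals cover counting error only, and 26 to 102 cells per library fell short of 3000 UMIs and were left out. Without thinning the shares were 65.9% and 43.4%, 86.8% and 73.4%, and 98.7% and 97.1%, at median depths of 7955 to 17342 UMIs. Between 9.31% and 16.4% of the cells of all libraries but Prepuberty 2 (6.78%) had 4 or 5 UMIs, next to the limit. The median cell had 2 and 1 UMIs of the 40 genes in Prepuberty, 7 and 4 in DCIS and 10 and 11 in Tumor. In fibroblast-like cells the share was 1.53% and 4.49% in Prepuberty, 0.507% and 0.290% in DCIS and 33.0% and 72.1% in Tumor. The Tumor 1 share was 10.4% without integration and 19.2% without doublet removal, and 30.3% and 43.4% of the Tumor cells of this class held a T-antigen UMI before thinning. In macrophage-like cells it was 0 of 66 cells in Prepuberty 1 and 0 of 55 in Prepuberty 2, which allow shares of up to 4.55% and 5.45% (3 cells of the total), and 14.4% and 24.2% in Tumor. With 2 libraries on each side, the smallest two-sided p of an exact permutation test is 0.333, so none was run.

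The T antigen was then compared with the 40 genes cell by cell within a library. In epithelial-like cells a T-antigen UMI was seen in 14.0% and 2.07% of cells in Prepuberty, 29.8% and 18.7% in DCIS and 72.8% and 57.5% in Tumor. Its TMM-scaled CPM was 13.2 and 1.25, 40.4 and 20.8, and 254 and 45.5, so DCIS 1 and Tumor 2 were close, DCIS 2 was lower and Tumor 1 stood far above (Tumor against DCIS 2.29 ± 0.97 on the log2 scale, adjusted p = 0.20 by edgeR). Per 10000 UMIs, T-antigen UMIs numbered 0.121 and 0.0127 in Prepuberty 1 and 2, 0.367 and 0.180 in DCIS 1 and 2, and 2.61 and 0.602 in Tumor 1 and 2. The library with more T antigen had the higher level of the 40 genes in Prepuberty and in DCIS and the lower level in Tumor, with 1 pair of libraries a state and no test. In endothelial-like cells, which should lack the T antigen, a UMI was seen in 3.95% and 0% of Tumor cells. Median UMIs were 13115 and 17342 per epithelial-like cell and 7252.5 and 4077 per endothelial-like cell of Tumor 1 and 2.

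**Figure D5:**
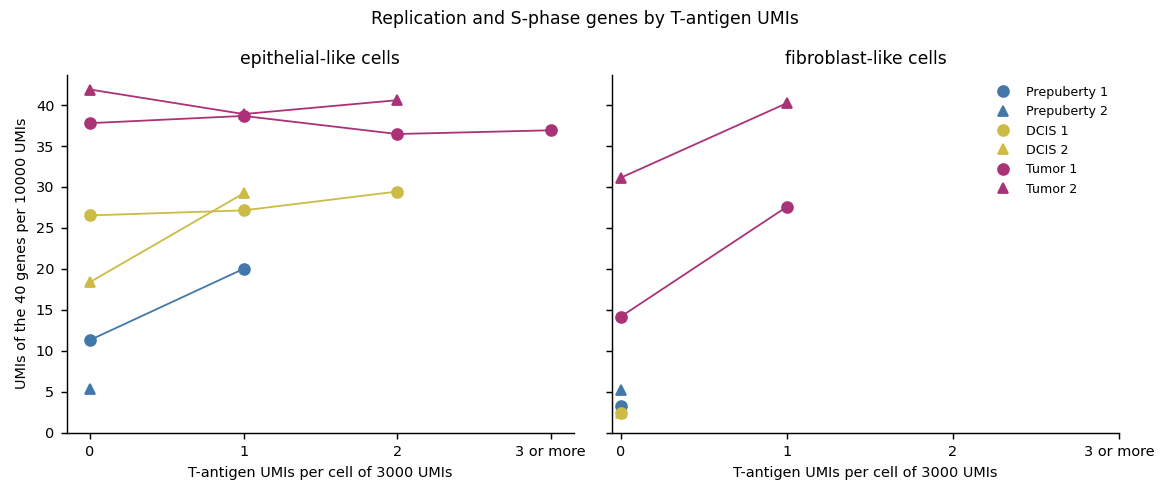
UMIs of the 40 genes per 10000 UMIs in cells with 0, 1, 2 and 3 or more T-antigen UMIs after thinning to 3000 UMIs, in epithelial-like and fibroblast-like cells; 1 line per library, bins of at least 10 cells. In epithelial-like cells the Tumor lines stay within 36.5 to 38.7 in Tumor 1 and 38.9 to 41.9 in Tumor 2, and the Prepuberty 1, DCIS 1 and DCIS 2 lines climb, that of DCIS 1 from 26.5 to 29.4.

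After thinning to 3000 UMIs, the cells with at least 1 T-antigen UMI numbered 19 in Prepuberty 1, 111 and 49 in DCIS and 1058 and 220 in Tumor, and Prepuberty 2, with 1 such cell, was left out. Between T-antigen-positive and T-antigen-negative epithelial-like cells of the same libraries, 0 of 40 genes were called by edgeR, beside 0.715% of the 9646 genes tested (0.114% higher), and 1 had an unadjusted p under 0.05, higher in positive cells, beside 2.02% of all genes higher and 4.59% lower. DESeq2 called 0, with 0 at an unadjusted p under 0.05. Fold changes ran from -0.25 to 0.37 on the log2 scale with SEs from 0.12 to 0.28, 19 of 40 were above 0 (27 without TMM), and the upper 95% limit lay under 1 for all 40. The gene with an unadjusted p under 0.05 was Rfc5, a subunit of the clamp loader (0.28 ± 0.13, adjusted p = 0.71). Mcm10, Pold1, Cdc45, Tk1 and Uhrf1 had estimates from 0.14 to 0.37, and Gins2, Chaf1a, Orc6 and Pcna from -0.25 to -0.14. Of those 10 genes, 9 changed sign under at least 1 alternative. When the T-antigen effect in Tumor was set against that in DCIS, edgeR called 0 of 40 (2 higher and 2 lower at an unadjusted p under 0.05, beside 5.81% and 2.09% of all genes), beside 0.216% of all genes tested. The median SE was 0.31 and the upper 95% limit of the difference lay under 1 for 32 of 40, so the effects are not shown to be alike. Prim1 had the larger effect in Tumor, by 1.15 ± 0.42 on the log2 scale (adjusted p = 0.37 by edgeR), and Gins3, with 0 UMIs in the positive DCIS cells, has no fold change that can be read. Without DCIS 1 edgeR called 1 gene, Rfc5 (-1.53 ± 0.40, adjusted p = 0.0145), beside 1.65% of all genes.

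The libraries did not all point the same way. The summed CPM of the 40 genes in positive over negative cells was 1.27 in Prepuberty 1, 0.962 and 1.42 in DCIS 1 and 2, and 0.987 and 0.921 in Tumor 1 and 2. In DCIS 2, 31 of 40 genes were higher in positive cells, and in Tumor 2, 13 were. A total of 3 genes were higher in positive cells of all 5 libraries and 2 in none. In DCIS 2 the level was 18.4 per 10000 in the 826 cells without a T-antigen UMI and 29.2 in the 43 cells with 1, and in Prepuberty 1 it was 11.3 in 662 cells and 20 in 17. In DCIS 1 it was 26.5 in 999 cells without, 27.1 in 98 cells with 1 and 29.4 in 12 cells with 2. In Tumor 1 it was 37.8 at 0, 38.7 at 1, 36.5 at 2 and 36.9 at 3 or more. Within single clusters of a library with at least 10 cells of both kinds, positive over negative cells gave ratios from 0.799 to 1.23 in 13 cluster and library pairs, with a median of 0.992 and 5 above 1. Seen from the other side, cells at or over 5 UMIs of the 40 genes held a T-antigen UMI more often in 2 gland libraries, 6.47% (exact 95% interval 3.49 to 10.8) against 1.25% (0.460 to 2.70) in Prepuberty 1 and 9.74% (7.11 to 12.9) against 1.58% (0.636 to 3.22) in DCIS 2. In DCIS 1 the shares were 10.8% and 8.22%, in Tumor 1 41.0% and 37.9% and in Tumor 2 16.7% and 18.0%, with overlapping intervals. These are shares of cells of 1 library each, with no test between libraries, and at 3000 UMIs a cell that makes the T antigen can show none.

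In fibroblast-like cells the T-antigen-positive cells had the higher level in both tumours. In Tumor 1 the 40 genes were at 14.1 per 10000 in 194 cells without a T-antigen UMI and at 27.6 in 22 cells with 1, and in Tumor 2 at 31.1 in 226 cells and at 40.2 in 28 cells. Cells at or over 5 UMIs of the 40 genes held a T-antigen UMI in 29.3% (exact 95% interval 19.4 to 41.0) against 7.24% (3.67 to 12.6) of cells in Tumor 1. In Tumor 2 the shares were 16.9% (11.9 to 23.1) and 5.48% (1.51 to 13.4), with overlapping intervals. In the glands no more than 3 fibroblast-like cells of a library were positive after thinning.

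Other genes of the cycle were counted beside the 40. Of 52 further replication genes, 6 rose in epithelial-like cells from Prepuberty to Tumor and none fell, beside 2.8% and 3.31% of all genes, with a median log2 fold change of 1.25. Without TMM 10 of the 52 were called in that comparison, beside 6.48% of all genes, and with DESeq2 23, beside 17.3%. In Tumor against DCIS 28 of 51 of them tested rose in fibroblast-like and 16 of 44 in endothelial-like cells, beside 7.14% and 7.08% of all genes called higher. Of 30 mitosis genes, 0 were called in epithelial-like cells in any comparison of states by edgeR, although 30 of 30 were above 0 from Prepuberty to Tumor and 17 had an unadjusted p under 0.05, beside 53.8% and 15.6% of all genes. Without TMM edgeR called 2 from Prepuberty to Tumor (Nuf2 and Cdc20), both higher in Tumor, beside 4.46% of all genes called higher, with 24 at an unadjusted p under 0.05, beside 21.9%. DESeq2 called 1 of 30 in DCIS against Prepuberty (Nuf2), 2 in Tumor against DCIS (Bub1 and Cenpe) and 10 in Tumor against Prepuberty, all higher in the later state, beside 1.65%, 5.26% and 8.60% of all genes called higher. In endothelial-like cells 27 of 29 mitosis genes rose in Tumor against DCIS, beside 7.08% of all genes called higher, and in fibroblast-like cells 20 of 30, beside 7.14%. Between T-antigen-positive and T-antigen-negative epithelial-like cells the mitosis genes and the 40 genes differed in their counts: 29 of 30 mitosis genes had estimates above 0 and 12 had an unadjusted p under 0.05, all higher in positive cells, beside 44.7% and 2.02% of all genes tested, with a median of 0.24, while the median of the 40 genes was -0.02. None of the 30 was called by edgeR (smallest adjusted p 0.19, for the mitotic kinase Plk1, at 0.55 ± 0.18). Without TMM edgeR called 1, the centromere histone gene Cenpa (0.45 ± 0.11, adjusted p = 0.0211), with 17 at an unadjusted p under 0.05, all higher, beside 0.197% and 3.45% of all genes higher. DESeq2 called 0, with 2 at an unadjusted p under 0.05, both higher, beside 0% and 0.529% of all genes higher, and the difference between the lists was not tested. Among the genes with a promoter window, the 13 with a match had a median log2 fold change of 1.68 in epithelial-like cells from Prepuberty to Tumor and the 19 without one 1.84, and in fibroblast-like cells from DCIS to Tumor 3.14 and 3.39. The order was the other way in fibroblast-like cells from Prepuberty to Tumor (2.64 and 2.04). It was so too in macrophage-like cells from DCIS to Tumor (2.18 and 1.86) and from Prepuberty to Tumor (2.66 and 2.32). No order held over all classes and comparisons.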

How the data were processed

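Single-cell RNA-seq (10x Genomics) was read from 6 libraries. Per the file headers and the submitters' processing notes, the authors made UMI counts per gene and cell with Cell Ranger 3.0.2 on mm10, with the T-antigen and a neomycin feature added; these deposited counts were not normalized. Cells with under 200 detected genes or over 10% mitochondrial UMIs, and doublets marked by Scrublet (a share set from the number of cells), were left out. Libraries were integrated and clustered in Seurat 5.3.0 (2000 variable genes, 20 dimensions, resolution 0.8), and clusters were named from at least 3 of a list of markers. With other numerical library settings some cells were clustered differently, so the settings were fixed.

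UMIs were summed per library and class (at least 10 cells) and tested in edgeR 4.0.16 (quasi-likelihood, TMM, filterByExpr) over all genes, with Benjamini-Hochberg adjustment at 0.05. DESeq2 1.42.0 was an alternative. The T-antigen comparison used cells thinned to 3000 UMIs and the library as a block. Intervals are exact binomial (Clopper-Pearson) or exact for ratios of counts, and cover counting error only. Kept UMIs ran from 28512209 to 57143434 per library. The scripts were tested on simulated data.

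Of the 40 genes, 40 passed the filter on low counts in epithelial-like and fibroblast-like cells, 37 in endothelial-like, 31 in macrophage-like and 17 in T-cell-like cells. A gene that passed through a high state alone had to differ there.

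The genes, roles and other lists were chosen with earlier results of these data known. Values were given by rule for at most 12 called genes a comparison by adjusted p, 2 per role in epithelial-like cells (highest mean CPM, largest change of Tumor against DCIS) and 10 in the T-antigen comparison by p-value; the state values of Cdc45 and Pold1 in epithelial-like and Mcm6 in fibroblast-like cells, Prim1 and Gins3 in the difference of the T-antigen effect, and the named mitosis genes were chosen after they were seen. Alternatives were the tool, scaling, filter, libraries, replicate block, integration, doublets, thinning and subsets of cells.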

Additional observations from a re-analysis of the deposited data

Results flagged for a closer look

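The step from DCIS to Tumor differed between classes by the test of the difference itself (edgeR quasi-likelihood test of a class by state term, Benjamini-Hochberg adjustment). Of the 40 genes, 18 rose more in fibroblast-like than in epithelial-like cells, 14 rose more in endothelial-like cells and 5 rose more in macrophage-like cells, and in none of the 3 tests did a gene rise more in epithelial-like cells. In the same direction 3.29%, 2.15% and 1.97% of all genes tested were called. Leaving out 1 library moved the counts to 0 to 32, 4 to 23 and 0 to 15. Without TMM 31 and 8 were called against fibroblast-like and macrophage-like cells, beside 6.14% and 3.29% in that direction. Median differences of epithelial-like minus the other class were -2.83, -1.98 and -1.42 on the log2 scale. The T antigen itself also rose more in fibroblast-like than in epithelial-like cells (-5.27 ± 0.88, adjusted p = 0.0152 by edgeR), and its part in the result was not tested.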

How the results depend on the processing

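Of the recomputed counts of called genes, 210 stayed within 1.5 times the value in the report and 74 did not. Of the recomputed fold changes of the members named by rule in a comparison, 1366 kept their direction and side of the threshold, 2 newly passed (Pola1 at 1.20 and Tk1 at 1.37 in epithelial-like Tumor against DCIS, no filter), 38 changed sign and the rest no longer passed. The cause of each change was not tested.

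The counts of the 40 genes depended on the test. DESeq2 called 14 in epithelial-like cells in DCIS against Prepuberty and 31 in Tumor against Prepuberty, and 5 and 4 in macrophage-like cells in Tumor against DCIS and Tumor against Prepuberty, where it called 1.76% and 1.60% of all genes higher. Without a filter on low counts 24, 2 and 35 were called in the 3 epithelial-like comparisons (DCIS against Prepuberty, Tumor against DCIS, Tumor against Prepuberty), beside 2.29%, 4.87% and 7.38% of all genes called higher, 5 in fibroblast-like DCIS against Prepuberty, beside 1.86% of all genes called, and 1, 18 and 12 in the 3 macrophage-like comparisons, beside 1.49%, 7.62% and 6.61%. Without TMM 37 were called in fibroblast-like Tumor against Prepuberty and 16 in macrophage-like Tumor against DCIS, beside 10.4% and 9.53% of all genes called higher, and 31 and 8 in the class by state tests against fibroblast-like and macrophage-like cells, beside 6.14% and 3.29% in that direction. Without TMM the median fold change of all genes moved by 0.71 on the log2 scale in fibroblast-like, 0.61 in macrophage-like and 0.41 in epithelial-like cells in Tumor against DCIS.

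With cells thinned to 3000 UMIs 8 were called in epithelial-like Tumor against Prepuberty, 4 and 5 in the endothelial-like and 0 and 1 in the macrophage-like comparisons with Tumor. Only the 4 libraries compared, or only cells with a T-antigen UMI, left 0 in epithelial-like Tumor against Prepuberty, beside 1.77% and 0% of all genes called. Without integration 14 and 5 were called in fibroblast-like Tumor against DCIS and Tumor against Prepuberty, and in cells with no T-antigen UMI 14 in the latter. The following were chosen after seeing the data. Without the cluster led by Ccl2, Mmp3 and Ccl7, 19 and 8 fibroblast-like calls were made, and in cells with no UMI of T antigen, Epcam, Krt8 or Krt18 15 and 7 were made, with 9 and 9 in endothelial-like and 4 and 3 in macrophage-like cells. Without the cluster led by Tph1, Cxcl15 and Ptn the T-antigen comparison gave 0 calls, beside 0.459% of all genes.

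Leaving out 1 library at a time gave 0 to 18 calls in epithelial-like Tumor against Prepuberty. In Tumor against DCIS and Tumor against Prepuberty it gave 0 to 36 and 2 to 28 in fibroblast-like, 10 to 23 and 12 to 22 in endothelial-like, and 0 to 9 and 1 to 8 in macrophage-like cells. The class by state counts ran from 0 to 32 against fibroblast-like, 4 to 23 against endothelial-like and 0 to 15 against macrophage-like cells, and the difference of the T-antigen effect between Tumor and DCIS from 0 to 1.

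Replicate numbers were used as a block to test the pairing. Deviations of same-numbered libraries correlated over 0.1 for every pair of states in fibroblast-like cells (0.337, 0.136 and 0.183). With them the block called 38 and 33, beside 10.4% and 8.18% of all genes called higher. In the same order of pairs, endothelial-like values were 0.353, 0.058 and 0.032. Macrophage-like values were 0.134, 0.105 and 0.023, and epithelial-like values 0.068, -0.075 and -0.026. Every class comes from the same 6 libraries, and the correlations differ by class. They therefore do not settle whether same-numbered libraries are paired. The block called 8 in epithelial-like Tumor against Prepuberty, beside 1.07% of all genes called higher. It called 27 and 28 in endothelial-like cells, beside 8.04% and 7.60%, and 8 and 7 in macrophage-like ones, beside 2.94% and 2.15%. It moved no other count by over 1.5 times.

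Fold changes near 0 changed sign. In epithelial-like Tumor against DCIS, Gmnn ranged from -0.47 to 0.39 in leave-one-out fits and was at -0.075 with the replicate block, -0.011 without integration and -0.15 in cells with a T-antigen UMI. Gins2 ranged from -0.34 to 0.30 and was at 0.38 without TMM, 0.047 with the replicate block, 0.012 with cell cycle genes left out of clustering, 0.0017 without doublet removal and 0.20 in thinned cells. Lig1 ranged from -0.10 to 0.27 and was at -0.024 without integration and -0.10 in cells with a T-antigen UMI, and Slbp ranged from -0.0020 to 0.27 and was at -0.026 in those cells. Between T-antigen-positive and negative cells, thinning to 2000 UMIs gave -0.054 for Rfc5, 0.024 for Gins2, -0.59 for Mcm10, 0.076 for Chaf1a, -0.012 for Pold1, 0.14 for Orc6, 0.078 for Pcna and -0.032 for Uhrf1. Thinning to 5000 gave 0.039 for Gins2, 0.20 for Chaf1a, -0.010 for Cdc45, 0.024 for Orc6 and 0.053 for Pcna, and unthinned cells gave 0.23 for Chaf1a, -0.012 for Cdc45 and 0.068 for Orc6. A call of at least 2 T-antigen UMIs gave -0.17 for Rfc5 and -0.25 for Pold1, leave-one-out fits gave -0.42 to 0.12 for Orc6, and no library block gave 0.0056 for Orc6 and 0.029 for Pcna.

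The shares of cells moved with the limit and depth. In epithelial-like cells, in the order Prepuberty 1 and 2, DCIS 1 and 2, Tumor 1 and 2, thinning to 2000 UMIs gave 17.6%, 3.12%, 51.1%, 35.5%, 70.8% and 72.1%, thinning to 5000 gave 49.4%, 16.5%, 83.5%, 64.5%, 97.8% and 94.6%, a limit of 3 UMIs gave 47.4%, 16.9%, 83.5%, 64.3%, 97.4% and 93.1%, and a limit of 8 gave 11%, 0.847%, 43.5%, 29.9%, 68.3% and 71.4%. In fibroblast-like Prepuberty 1 and 2 and Tumor 1 and 2 they gave 0.370%, 1.38%, 22.6% and 55.4%, then 4.50%, 14.5%, 41.2% and 85.8%, then 9.08%, 19.96%, 48.5% and 82.8%, then 0.273%, 0.713%, 21.6% and 55.0%. In fibroblast-like DCIS cells a limit of 3 gave 4.05% and 3.48%, thinning to 2000 gave 0% in DCIS 1, thinning to 5000 1.07% and a limit of 8 0% in DCIS 2. Without integration the share was 80.1% in epithelial-like Tumor 2 and 10.4% in fibroblast-like Tumor 1, and without doublet removal 19.2% in the latter. The order of the states held in epithelial-like cells under both limits and both depths.

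With 2 libraries a state and 34 to 76 endothelial-like Tumor cells, values of genes with few UMIs have wide errors, and a gene at 0 UMIs was not detectable at this depth.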

Other observations

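Cells in 6 unnamed clusters were kept out of the comparisons of classes. The cluster led by Acan, Npy and Wnt10a held the 40 genes at 37.6 and 53.5 UMIs per 10000 in Tumor 1 and 2. The cluster led by Gm42418, Hells and Tpm1, whose cells had a median of 1571.5 UMIs, held them at 3.79 and 2.38 in Prepuberty, 29.6 and 23.3 in DCIS and 41.3 and 50.0 in Tumor. The cluster led by the mitosis genes Plk1, Ccnb1 and Cenpe held them at 28.4 and 29.4 in Tumor.

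Mitosis genes and the 40 genes did not keep a fixed ratio across classes. In myoepithelial-like cells of Tumor 1 and 2 the 40 genes stood at 36.0 and 41.6 UMIs per 10000 and the 30 mitosis genes at 6.72 and 4.57, beside 35.2 and 40 and 32.8 and 48.3 in epithelial-like cells. The epithelial-like class includes the cluster led by Cenpf, Ube2c and Ccnb1, with mitosis genes at 64.1 and 87.7. Clusters were made without leaving out cell cycle genes, so this contrast and the sorting of cells cannot be told apart. Those myoepithelial-like Tumor cells also held epithelial markers at 61.8 and 27.2. In epithelial-like cells with under 5 UMIs of the 40 genes per 3000, mitosis genes stood at 47.4 and 66.0 per 10000 in Tumor 1 and 2, above the 30.1 and 39.6 of cells at or over that limit, while in Prepuberty 1 and DCIS 2 they stood at 11.7 and 7.53, under 23.0 and 19.9, and in DCIS 1 they were nearly level at 20.8 and 21.2. These are values of cells within libraries, without a test.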
